A study of Homo sapiens with 24 samples.

Results

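P493 cells that had been held with MST-312 and tetracycline were compared 4 h and 0 h after they were moved to tetracycline-free medium that still contained MST-312. The comparison took the 3 arrays of the MST-312 cells at 4 h and the 3 at 0 h, 6 of the 24 arrays in the series, and covered all genes detected in at least 1 group of arrays, 10246 in all. P493 is a human B cell line in which tetracycline shuts off a MYC transgene, and MST-312 is a small molecule used as a telomerase inhibitor. The hold with both agents lasted 48 h, and MST-312 was present at 0 h as well as at 4 h, so the comparison follows the release from tetracycline within MST-312 cells. The series also holds untreated P493 cells at 0 h and 4 h, 3 arrays each, which were set beside it. No source used here gives the tetracycline schedule of the untreated cells, so a difference in schedule and an effect of MST-312 cannot be told apart wherever the treatments are compared. P493 is a single cell line, and the labels number the replicates without saying whether they were separate cultures. The p-values therefore measure the spread between these arrays, which may be technical.

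MYC is a transcription factor that pairs with MAX and binds E-box sequences in promoters. It is known for raising the expression of genes for ribosome production, nucleotide synthesis and growth, and MXD proteins and MNT compete with it for MAX. In P493 cells the removal of tetracycline restores MYC from the transgene and lets arrested cells grow. Telomerase is built from the reverse transcriptase TERT, an RNA template and the H/ACA proteins dyskerin and NHP2, which also act in ribosome production.

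Values below are normalised log2 intensities from Illumina expression beadchips, so a difference of 1 is a doubling, and the level of a probe cannot be set against that of another. A gene was said to rise or fall when limma's adjusted p was below 0.05, with the Benjamini-Hochberg adjustment over all 10246 genes, and all tests were two-sided. Between 16585 and 17440 probes were detected on the 6 arrays, and arrays of the same group correlated at 0.9873 or above throughout the series. The arrays carried B cell transcripts. Of 24 B cell identity genes on the array, 21 were detected on all 6 arrays, while PAX5 and FCRL1 were detected on none. The normalised intensities of the 24 genes, on a linear scale here and in the sums below, summed to 106000 to 115700 at 0 h. At 4 h they summed to 111800 to 120400. Of 14 T cell markers 1, IL7R, was detected on all 6 arrays, and CD3E, CD3G, CD2 and LCK on none. The summed T cell level was 1228 to 1346 at 0 h and 1320 to 1532 at 4 h. Of 14 monocyte and macrophage markers 5 were detected on all 6 (AIF1, CD14, CD68, ITGAM and LYZ), with sums of 6467 to 6758 at 0 h and 6070 to 6749 at 4 h. Of the 6 monocyte and macrophage markers that were tested 3 fell (LYZ by 0.97, ITGAM by 0.99 and FCGR3A by 0.87), none rose and the median was -0.58, and the part of such cells in the results was not tested. Of 12 epithelial and fibroblast markers 3 were (ACTA2, COL1A1 and EPCAM), with sums of 3688 to 3936 at 0 h and 2793 to 3051 at 4 h.

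From 0 h to 4 h, 1851 genes (18.1% of those tested) rose in the MST-312 cells and 1847 genes (18%) fell, 36.1% in either direction. Most of these changes were small. A rise of at least 2-fold was found for 209 genes and a fall of at least 2-fold for 189, and 13 rises and 2 falls reached 4-fold. The median change without regard to sign was 0.251, against a median SE of 0.13. In the untreated cells 2341 genes (22.8%) rose and 2261 (22.1%) fell, with a median change without regard to sign of 0.304. Of the genes called in the MST-312 cells, 1143 rose in both treatments and 966 fell in both. Another 119 rose with MST-312 and fell in untreated cells, and 112 fell with MST-312 and rose in untreated cells. Each of these passed the test of the difference between the treatments. A further 1358 passed the test with MST-312 and not in untreated cells, and for 536 of them the difference itself passed. Over all genes the difference was higher with MST-312 for 1155 genes (11.3%) and lower for 1175 (11.5%). Scaling each array by its median in place of quantile normalisation moved the split of these differences to 530 higher and 1260 lower, or 29.6% higher against 49.6%, and that of the untreated changes to 2535 higher and 1554 lower, or 62% against 50.9%. With that scaling the median difference over all genes was -0.13, where it had been -0.01. The changes in the 2 treatments come from separate arrays, and over genes, which are not independent replicates, they correlated at a Pearson r of 0.572 with a slope of 0.462. The counts of gene lists below are to be read beside the shares over all genes given here.

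**Figure D1:**
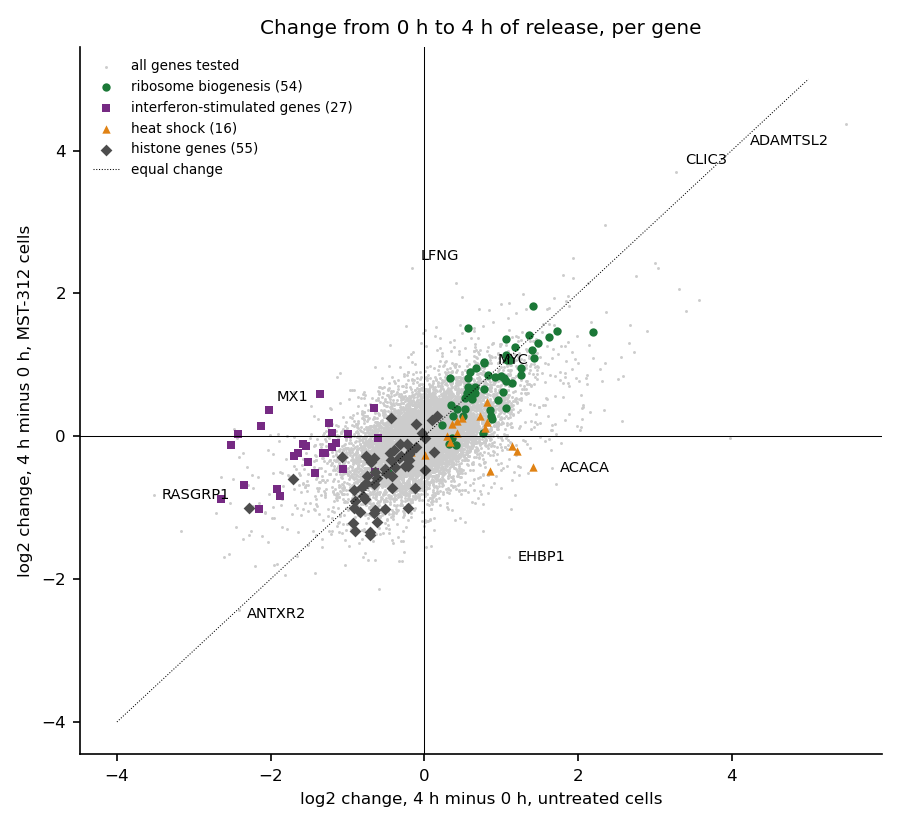
Each point is a gene, with its log2 change from 0 h to 4 h in untreated cells on the x axis and in MST-312 cells on the y axis. Ribosome biogenesis genes lie in the upper right, interferon-stimulated genes spread far to the left of 0 but stay close to 0 on the y axis, and most heat shock genes lie to the right of 0 and near 0 on the y axis.

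MYC itself rose. Its normalised log2 intensity was 13.88, 13.84 and 13.77 on the 0 h arrays and 14.99, 14.88 and 14.83 on the 4 h arrays. The groups did not overlap, as in this direction for 23.9% of all genes tested. The change was 1.07 (SE 0.10, adjusted p 9.02e-08), a 2.10-fold rise. The other MYC probe rose by 1.15. Mean raw intensity of the main probe went from 13950 to 31010, so MYC was already bright at 0 h. In untreated cells MYC rose by 0.79, and the difference of 0.28 did not pass the test (adjusted p 0.179). The files do not say whether these probes read the transgene, the cell's own gene or both. TERT was not detected: its probes had mean raw intensities of 73.6 and 92.77 at 0 h and 81.3 and 93.5 at 4 h, and neither was detected on any of the 24 arrays.

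The partners and competitors of MYC moved little. Of 9 tested genes of the MYC, MAX and MXD network, MYC alone rose and 2 fell, with a median change of 0.11, against -0.01 over all genes tested. Without replicate 2 at 0 h or replicate 3 at 4 h 0 fell, without replicate 1 at 0 h 1 fell, and without replicate 2 at 4 h 2 rose. Those that fell were MXD4 and MXD3, which encode competitors of MYC for MAX. MXD4 lay at 10.82, 11.08 and 10.76 at 0 h and at 10.61, 10.70 and 10.32 at 4 h, a fall of 0.35 (adjusted p 0.0116). Its groups did not overlap, as in this direction for 24.2% of all genes tested. MXD3 was detected at 0 h at 6.17, 6.09 and 5.94 and on no array at 4 h, at least 1.13-fold lower (adjusted p 0.0225). Both calls were lost under other settings, with adjusted p up to 0.0909 for MXD4 and 0.0996 for MXD3. MAX, the common partner, changed by -0.12 (adjusted p 0.485) and its other probes by 0.63, -0.28 and -0.08. MNT changed by 0.23 (adjusted p 0.0835), MXD1 by 0.38 (0.116), MGA by 0.25 (0.116), MLX by 0.11 (0.65) and MXI1 by -0.02 (0.952). In untreated cells MGA, a large MAX-binding protein, rose by 1.04, and the difference of -0.78 passed the test (adjusted p 0.00259).

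The 12 largest rises included secreted and cell surface proteins. ADAMTSL2, an extracellular matrix glycoprotein, was undetected at 0 h at 5.58, 5.60 and 5.60 and reached 9.96, 10.01 and 9.91 at 4 h. It was at least 17.03-fold higher at 4 h (adjusted p 6.51e-18). CLIC3, a chloride intracellular channel family protein, went from 6.92, 7.30 and 7.18 to 10.88, 10.77 and 10.85, a rise of 3.70 (SE 0.10, adjusted p 5.41e-16). PRRT3, a proline-rich transmembrane protein, was undetected at 0 h and at least 4.37-fold higher at 4 h, where it lay at 8.02, 8.20 and 7.78. The 12 were chosen among genes whose 4 h arrays all lay above the 0 h arrays, which held for 23.9% of all genes tested.

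PFKFB3 makes the metabolite that activates phosphofructokinase in glycolysis. It went from 9.86, 9.89 and 9.62 to 12.28, 12.27 and 12.11, a rise of 2.43 (SE 0.09), and its other probe rose by 1.56. LFNG, a sugar transferase that modifies Notch receptors, went from 6.32, 6.42 and 6.22 to 8.77, 8.68 and 8.57, a rise of 2.35 (SE 0.10, adjusted p 1.04e-12). In untreated cells LFNG was high at both times, with means of 9.82 and 9.66, and its change of -0.16 did not pass (adjusted p 0.224). SEMA7A, a membrane-anchored semaphorin, rose by 2.14 from 5.78, 6.14 and 5.51 to 8.14, 7.78 and 7.94, and was detected on 1 of the 0 h arrays.

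The chemokine CXCL16 rose by 2.49, from 5.36, 5.95 and 5.35 to 8.06, 8.07 and 8.00, and was detected on 1 of the 0 h arrays. A4GALT, the enzyme that makes the Gb3 glycolipid (CD77), rose by 2.36 from 8.60, 8.66 and 8.46 to 10.96, 10.92 and 10.91. SMAD7, an inhibitor of TGF-beta signalling, rose by 2.14 from 7.90, 8.00 and 7.89 to 10.06, 10.07 and 10.08. The lack of overlap between the times was a condition of the choice of these genes. MIR181A2HG, the host transcript of miR-181a and miR-181b, rose by 2.24 from 8.95, 8.72 and 8.65 to 11.01, 11.07 and 10.95. TNFRSF18, the receptor GITR, was undetected at 0 h and at least 3.39-fold higher at 4 h, with a second probe that rose by 1.21. EEF2KMT, which methylates elongation factor 2, was also undetected at 0 h and was at least 3.64-fold higher, and its other probes rose by 1.43 and 1.38.

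The 12 largest falls were led by ANTXR2, a cell surface receptor of anthrax toxin, which went from 8.63, 8.65 and 8.73 to 6.46, 6.18 and 6.08. It fell by 2.43 (SE 0.17, adjusted p 1.40e-09). AFF3, a nuclear protein of lymphoid cells, went from 9.02, 9.11 and 9.13 to 6.70, 6.86 and 7.29, a fall of 2.13 (SE 0.13). SLAMF6, a lymphocyte receptor, went from 12.07, 12.11 and 12.08 to 10.37, 10.18 and 10.29, a fall of 1.80 (SE 0.09), and its other probe fell by 1.15. The 4 h arrays of these genes all lay below the 0 h arrays, which was a condition of their choice and held for 24.2% of all genes tested.

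NT5E, the ectoenzyme CD73, fell by 1.91 from 7.84, 7.53 and 7.86 to 5.54, 5.60 and 6.35. The values of 5.54 and 5.60 lie near background, and over the alternatives its change ranged from -2.17 to -1.04. PDE3B, a cyclic nucleotide phosphodiesterase, fell by 1.75 from 8.14, 8.15 and 8.27 to 6.81, 6.42 and 6.08. SSPN, a membrane protein of the dystrophin complex, fell by 1.74 from 7.90, 7.93 and 8.11 to 6.30, 5.98 and 6.45, and the kinase STK3 of the Hippo pathway by 1.73 from 9.01, 8.75 and 8.83 to 7.33, 6.99 and 7.10. DENND5B, an exchange factor for Rab GTPases, fell by 1.80 with a wide spread at 4 h, where it lay at 6.28, 7.23 and 5.95 after 8.40, 8.27 and 8.18 at 0 h. The widest spread was that of the 18S ribosomal RNA transcript RNA18SN5, at 12.20, 11.68 and 11.50 and then 9.78, 10.96 and 9.18, a fall of 1.82 (SE 0.54, adjusted p 0.0114, and 0.070 without replicate 3 at 4 h). RAB6B, GPR18 and PDSS2 were detected on all 0 h arrays and on no 4 h array, and were at least 2.78-fold, 2.39-fold and 2.50-fold lower. They encode a Rab GTPase, an orphan receptor of lymphocytes and an enzyme of coenzyme Q synthesis.

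**Figure D2:**
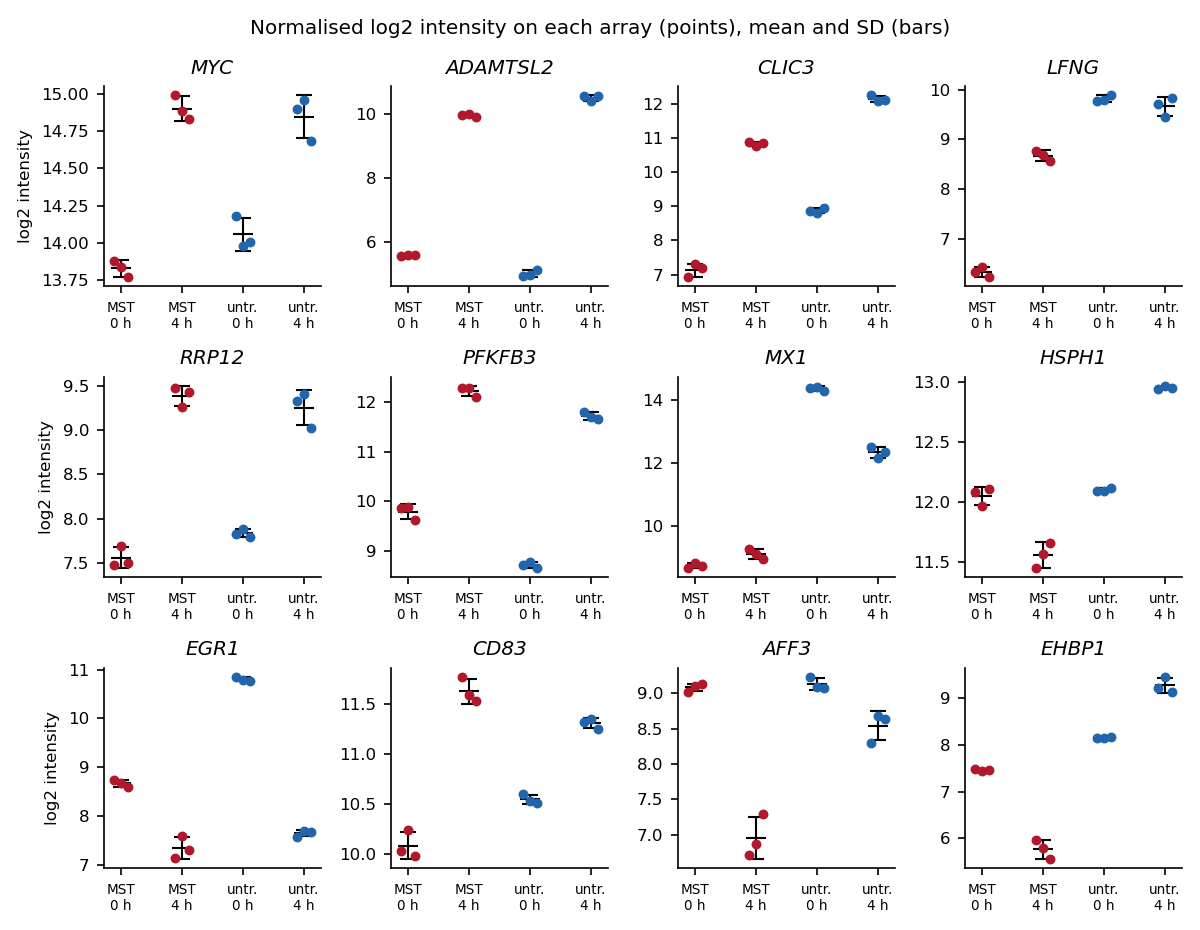
Normalised log2 intensity of 12 genes on each of the 3 arrays at 0 h and 4 h in MST-312 cells (red) and untreated cells (blue), with bars for the group mean and SD. MYC, RRP12, ADAMTSL2, CLIC3, PFKFB3 and CD83 were higher at 4 h in both treatments, EHBP1 and HSPH1 moved in opposite directions, and MX1 was far lower in MST-312 cells at both times.

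Genes for making ribosomes rose together. Of 54 tested ribosome biogenesis genes 44 rose and none fell, with a median change of 0.76, against -0.01 over all genes. In untreated cells 49 rose and none fell, with a median of 0.80. RRP12, which helps to export ribosomal subunits from the nucleus, went from 7.48, 7.70 and 7.50 to 9.47, 9.26 and 9.42, a rise of 1.82 (SE 0.11, adjusted p 1.20e-10). EMG1, a methyltransferase of the small subunit, went from 8.25, 8.36 and 8.40 to 9.84, 9.88 and 9.84, a rise of 1.52 (SE 0.09). Its untreated rise was smaller, 0.57, and the difference of 0.95 passed the test (adjusted p 1.21e-05). RRS1, a large subunit assembly factor, rose by 1.47 from 8.44, 8.58 and 8.48 to 10.03, 10.03 and 9.84. PPAN, another large subunit factor, rose by 1.46 from 7.42, 7.12 and 7.15 to 8.51, 8.92 and 8.62, and by 2.19 in untreated cells. NOLC1, a nucleolar chaperone of small nucleolar particles, rose by 1.39, and NOP16, a nucleolar protein described as a MYC target, by 1.25.

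The E-box CACGTG is the sequence that MYC and MAX bind. It was searched in the 250 bases before the start of each gene in RefSeq promoters (GRCh38.p14), where the sequence reads the same on both strands. It occurred in 6.49% of 27305 promoters of that length and in 9.29% of the 8244 that matched a tested gene. Among ribosome biogenesis genes it occurred in 8 of 45 matched promoters (17.8%), and in 5 of the 36 of genes that rose (13.9%). A match is a description of these letters and not of binding. NAT10, an RNA acetyltransferase of the small subunit, and UTP4, a component of the small subunit processome, were chosen after their values were seen as genes that rose and hold the E-box. It is in capitals in both, read 5′ to 3′ on the plus strand from chr11:34105379-34105628 and chr16:69132399-69132648, and both lie close to the start of the gene.
NAT10: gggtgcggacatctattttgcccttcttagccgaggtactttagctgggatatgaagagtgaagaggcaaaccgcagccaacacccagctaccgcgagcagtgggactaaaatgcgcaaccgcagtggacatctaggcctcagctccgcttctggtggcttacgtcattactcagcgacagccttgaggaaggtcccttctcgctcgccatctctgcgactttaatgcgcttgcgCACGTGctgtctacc
UTP4: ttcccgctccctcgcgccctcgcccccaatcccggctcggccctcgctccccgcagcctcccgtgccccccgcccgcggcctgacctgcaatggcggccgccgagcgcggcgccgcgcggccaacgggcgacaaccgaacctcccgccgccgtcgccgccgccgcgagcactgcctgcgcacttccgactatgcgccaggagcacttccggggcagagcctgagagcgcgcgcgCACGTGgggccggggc
NAT10 went from 10.03, 10.18 and 9.86 to 11.05, 11.21 and 10.91, a rise of 1.04 (SE 0.11, adjusted p 2.25e-07). UTP4 went from 10.61, 10.52 and 10.58 to 11.59, 11.54 and 11.27, a rise of 0.90 (SE 0.09, adjusted p 1.03e-07).

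Of 33 RNA polymerase I and III subunits 13 rose and 3 fell, with a median of 0.18, where 18.1% of all genes rose. The falls numbered 1 without replicate 1 at 0 h or without replicate 1 or 3 at 4 h. POLR1G, a polymerase I subunit, was undetected at 0 h and at least 1.80-fold higher at 4 h. POLR3G, a polymerase III subunit, rose by 1.11 from 6.92, 6.69 and 6.40 to 7.86, 7.86 and 7.62, although a dimmer probe changed by -0.09. POLR1C, which both enzymes share, rose by 1.01 from 10.33, 10.33 and 10.33 to 11.52, 11.12 and 11.38. In untreated cells 18 of the 33 rose and 1 fell, with a median of 0.46.

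Of 18 telomerase and telomere genes 7 rose and 2 fell (1 without replicate 3 at 0 h), with a median of 0.19. Over all genes 18.1% rose and 18% fell. DKC1, which encodes dyskerin, went from 10.80, 10.90 and 10.77 to 12.03, 11.96 and 11.88, a rise of 1.13 (SE 0.08, adjusted p 1.40e-09). NHP2 rose by 0.83 from 10.89, 11.005 and 10.80 to 11.78, 11.72 and 11.68. TERF1, a protein that binds telomeric repeats, fell by 0.91 from 9.11, 9.32 and 9.11 to 8.40, 8.64 and 7.77. The rises of DKC1 and NHP2 in untreated cells were 1.06 and 0.93, and neither difference passed the test.

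Other genes of growth moved in the same direction in part. Of 27 textbook MYC-activated genes 17 rose and 2 fell, with a median of 0.50, and in untreated cells 20 rose and 3 fell, with a median of 0.66. Of 21 purine and pyrimidine synthesis genes 13 rose and 3 fell, with a median of 0.41. IMPDH1, which commits purines to guanine nucleotides, rose by 1.16 from 8.99, 9.22 and 8.92 to 10.27, 10.17 and 10.20, while its dimmer probes changed by 0.24 and 0.30. NME1, a nucleoside diphosphate kinase, rose by 1.02, PAICS, a purine synthesis enzyme, by 1.00 and PFAS, another, by 0.97. CTPS2, a CTP synthase, fell by 0.75 and RRM1, the large subunit of ribonucleotide reductase, by 0.64.

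Polyamine genes had a median of 0.36, with 5 of 10 that rose and none that fell. AMD1 and SRM encode enzymes of spermidine synthesis. AMD1 went from 7.79, 7.58 and 7.64 to 8.79, 8.78 and 8.55, a rise of 1.04, and SRM from 8.52, 8.84 and 9.04 to 9.74, 9.82 and 9.86, a rise of 1.01. ODC1, the rate-limiting enzyme of the pathway, rose by 0.81 with MST-312 and by 0.35 in untreated cells, and the difference of 0.46 passed the test (adjusted p 0.0307). With median scaling the difference was higher with MST-312 for 0 of the 10 genes, so that of ODC1 no longer passed. SMOX, which oxidises spermine, rose by 0.99 and SMS, which makes it, by 0.35, although the SMS call was lost in 7 alternatives, among them without any of 4 arrays.

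The translation machinery itself was divided. Of 66 tested cytosolic ribosomal protein genes 4 rose and none fell, with a median of 0.03, or -0.02 with median scaling. When the mean over a gene's probes stood for it, 9 rose. Those that rose on the brightest probe were RPS7 by 0.89, RPL29 by 0.78, RPL34 by 0.65 (its other probe changed by -0.22) and RPS21 by 0.36. Of 35 translation factors 9 rose and none fell, where 18.1% and 18% of all genes did, with a median of 0.16. They were led by EIF5B, which joins the ribosomal subunits, with a rise of 0.94. Of 18 cytosolic tRNA synthetases 5 rose and none fell, with a median of 0.10 (3 rose without replicate 1 at 0 h), and FARSA, a subunit of the phenylalanine enzyme, rose by 0.81. In untreated cells the factors had a median of 0.30 and the synthetases of 0.37, and for 7 of the 18 synthetases the difference was lower with MST-312. Of 22 mitochondrial import and folding genes 14 rose and none fell, with a median of 0.26. Without replicate 3 at 0 h 9 rose, and with median scaling 8 rose. TIMM8A, a chaperone between the mitochondrial membranes, went from 7.81, 7.90 and 8.22 to 9.52, 9.51 and 9.57, a rise of 1.56, and GRPEL1, the exchange factor of mitochondrial HSP70, rose by 0.86.

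**Figure D3:**
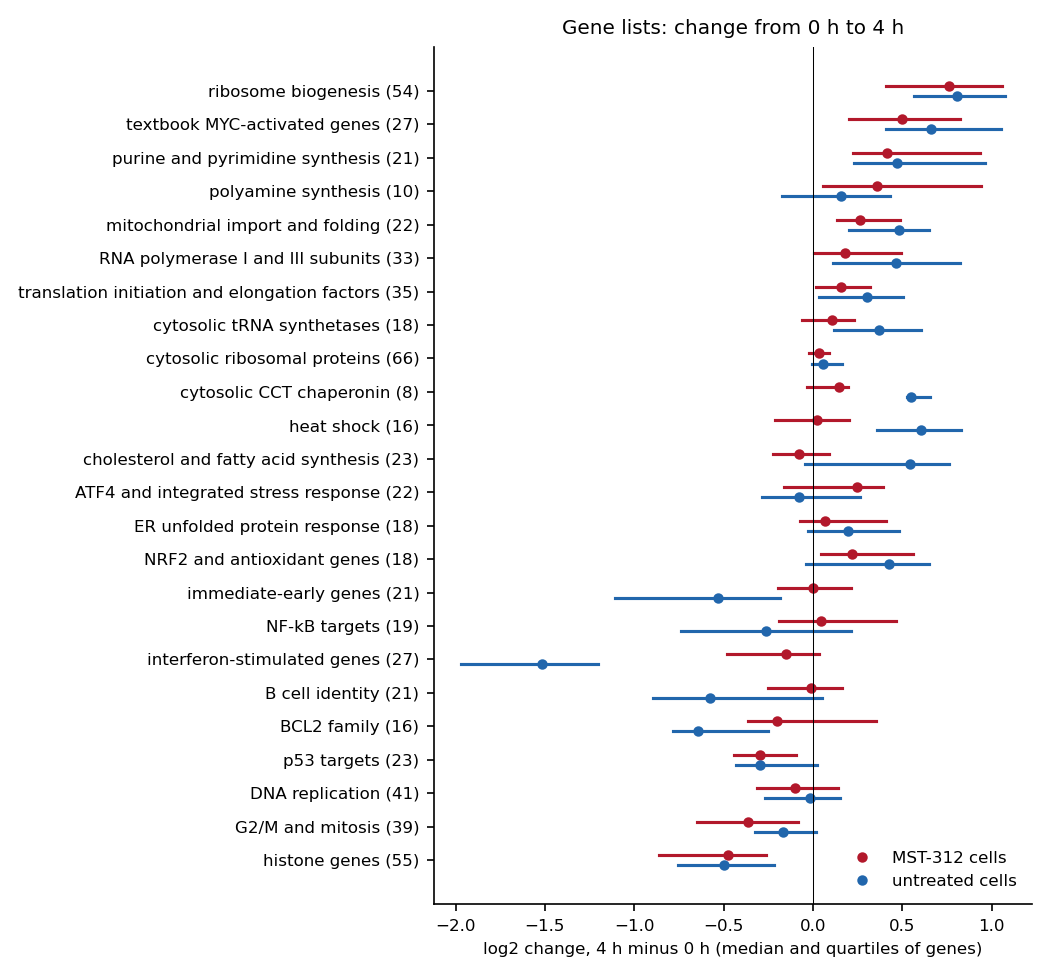
Median log2 change from 0 h to 4 h (points) and lower to upper quartile of genes (bars) for 24 gene lists in MST-312 cells (red) and untreated cells (blue), with the number of tested genes in parentheses. The medians of ribosome biogenesis lie at 0.76 and 0.80, whereas those of interferon-stimulated genes lie at -0.15 and -1.52 and those of heat shock genes at 0.02 and 0.61.

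Most of the CCT and heat shock genes tested rose in the untreated cells, and few of them rose with MST-312. The CCT chaperonin folds actin and tubulin. Of its 8 subunits CCT2 rose with MST-312, from 10.98, 10.87 and 10.52 to 11.60, 11.42 and 11.42 (change 0.69), and the others changed by -0.09 (TCP1) to 0.25 (CCT7) without passing. When the mean over a gene's probes stood for it, 3 subunits rose, CCT6A (0.28, adjusted p 0.00511) and CCT7 (0.30, adjusted p 0.00474) among them. Other probes of CCT6A changed by 0.41, of CCT7 by 0.27 and 0.37 and of CCT3 by 0.30. In untreated cells 7 of 8 rose on the brightest probe, with a median of 0.55 against 0.15. The difference was lower with MST-312 for 3 subunits, CCT4 at -0.77, CCT5 at -0.58 and CCT6A at -0.50. That is 3 of 8, where 11.5% of all genes had a lower difference.

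Heat shock genes showed the same contrast. With MST-312, 2 of 16 rose and 3 fell, where 18.1% and 18% of all genes did, with a median of 0.02. The falls numbered 1 without replicate 1 at 0 h or without replicate 1 or 3 at 4 h, the rises 1 without replicate 3 at 4 h, and the median was -0.03 without replicate 3 at 0 h. In untreated cells 12 rose and none fell, where 22.8% and 22.1% of all genes did, with a median of 0.61. The difference was lower with MST-312 for 9 of 16 and higher for none, where 11.5% and 11.3% of all genes were. HSPH1, an HSP70 exchange factor, went from 12.08, 11.96 and 12.11 to 11.45, 11.57 and 11.66 with MST-312, a fall of 0.49 (SE 0.08, adjusted p 9.86e-05). In untreated cells its mean went from 12.10 to 12.96, a rise of 0.86, and the difference was -1.35 (adjusted p 1.13e-07). HSPA1B, an inducible HSP70, fell by 0.44 from 11.61, 11.47 and 11.40 to 11.01, 11.23 and 10.93, against an untreated rise of 1.42. The fall did not pass with median scaling, without replicate 1 at 0 h or without replicate 1 or 3 at 4 h (adjusted p up to 0.0779). It is a near copy of HSPA1A, and the 2 genes' signals may not be separate on an array. Its mean at 0 h was 9.92 in untreated cells, below that of the MST-312 cells.

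HSPA8, the constitutive HSP70, lay at 12.54, 12.54 and 12.30 at 0 h and at 12.70, 12.60 and 12.68 at 4 h, a change of 0.20 that did not pass (adjusted p 0.118), while in untreated cells it rose by 0.82. CHORDC1, a cochaperone of HSP90, lay at 8.997, 8.724 and 8.691 and then 8.69, 8.55 and 8.55, a change of -0.21 that did not pass (adjusted p 0.149), while in untreated cells it rose by 1.21. The differences, -0.62 and -1.42, passed the test (adjusted p 0.00261 and 1.83e-06). Both genes were singled out after their values were seen.

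Genes induced by interferon were low in the MST-312 cells at 0 h and stayed low. Of 27 tested, 2 rose and 7 fell with MST-312, with a median change of -0.15, and 1 rose without replicate 1 or 3 at 0 h or without replicate 2 at 4 h. In untreated cells all 27 fell, with a median of -1.52. The median level of the list was 7.86 at 0 h and 7.65 at 4 h with MST-312, against 11.42 and 9.83 in untreated cells, so the treatments differed before release. The difference between the changes was higher with MST-312 for 25 of 27, where 11.3% of all genes were. MX1, an antiviral GTPase, went from 8.65, 8.81 and 8.71 to 9.27, 9.09 and 8.93 with MST-312, a rise of 0.37 (adjusted p 0.0374). The rise did not pass without replicate 1 or 3 at 0 h or without replicate 1 or 2 at 4 h. Nor did it pass with median scaling or without the filter on dim probes (adjusted p up to 0.158 over the alternatives). In untreated cells the mean of MX1 fell from 14.36 to 12.33. OAS2, which makes the activator of an RNA-degrading enzyme, fell from 10.94, 10.94 and 10.83 to 10.17, 10.17 and 10.17 with MST-312, a change of -0.73, while its dimmer probes changed by -0.51, -0.40 and 0.45. PARP9 fell by 1.01 and SAMD9L by 0.88. IFI44L was detected on 2 of the 0 h arrays and on no 4 h array, at least 1.10-fold lower.

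IFIT1 and IFIT3, which bind viral RNA or aid in this, were singled out after their values were seen. With MST-312, IFIT1 lay at 7.52, 7.71 and 7.61 at 0 h and at 7.67, 7.62 and 7.66 at 4 h, a change of 0.04 (adjusted p 0.793). IFIT3 lay at 7.94, 8.07 and 8.10 and then 7.81, 8.00 and 7.93, a change of -0.12 (adjusted p 0.559). The groups overlapped for both genes. In untreated cells IFIT1 fell by 2.42 from a mean of 12.24, and IFIT3 fell by 2.51 from a mean of 11.18.

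Immediate-early genes respond to growth signals within minutes. Of 21 tested, 4 rose and 5 fell with MST-312, near the shares over all genes (18.1% and 18%), and 3 fell without replicate 2 at 0 h or replicate 1 at 4 h. The median was 0.00, while in untreated cells 13 fell and none rose, with a median of -0.53. The difference was higher with MST-312 for 14 of 21 and lower for none, where 11.3% and 11.5% of all genes were. EGR1, a zinc finger factor, fell from 8.73, 8.68 and 8.59 to 7.13, 7.59 and 7.30 with MST-312, a change of -1.33 (SE 0.12), and by 3.16 in untreated cells, which started at a mean of 10.81. DUSP5, a phosphatase of ERK, fell by 0.60 with MST-312 and by 2.49 without. SRF, the factor that drives many of these genes, rose by 0.66 from 11.09, 11.21 and 11.03 to 11.77, 11.91 and 11.62. KLF10 rose by 0.98 on its brightest probe and by 0.80 on another, and changed by -0.41 on the other.

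NF-kB target genes included 6 of 19 that rose and none that fell, where 18.1% of all genes rose and 18% fell, with a median of 0.04. With cyclic loess 2 fell, and the median was -0.02 without replicate 3 at 0 h. With median scaling 4 rose and 1 fell, and the median was -0.04. CD83, a surface protein of activated B cells, went from 10.03, 10.23 and 9.98 to 11.77, 11.58 and 11.53, a rise of 1.54 (SE 0.08, adjusted p 2.37e-11), and its other probe rose by 1.71. LTA, the cytokine lymphotoxin alpha, rose by 0.65, and CD40, a costimulatory receptor, by 0.51, while both fell in untreated cells, by 0.96 and 0.60. The rise of CD40 did not pass without replicate 2 at 0 h or with median scaling (adjusted p up to 0.0699). NFKBIE, an inhibitor of NF-kB, rose by 0.65. BCL6, a repressor that marks germinal centre B cells, was undetected at 0 h and at least 2.06-fold higher at 4 h, where it lay at 6.66, 7.16 and 6.92. It was named from the list of quiescence and FOXO-linked genes. Of these 7 of 24 rose and 8 fell, where 18.1% and 18% of all genes did, with a median of -0.22.

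B cell identity genes numbered 21 tested, of which 3 rose and 6 fell, where 18.1% of all genes rose and 18% fell. The median was -0.01, and 3 fell without replicate 2 at 0 h or replicate 2 at 4 h. Without replicate 2 at 0 h 1 rose. In untreated cells 1 rose and 12 fell, with a median of -0.58, and the difference was higher with MST-312 for 11, or for 7 with median scaling. Over all genes it was higher for 11.3%. EBF1, an early B cell transcription factor, fell from 9.58, 9.54 and 9.56 to 8.81, 8.99 and 8.84, a change of -0.68 (SE 0.08), and in untreated cells it fell by 2.29. CD22, an inhibitory coreceptor, fell by 0.64 with MST-312 and by 1.30 without. Among plasma cell genes 2 of 10 rose and 2 fell, near the shares over all genes (18.1% and 18%). Only 1 rose without replicate 1 or 2 at 0 h or without replicate 1 or 3 at 4 h. CD27, a marker of memory B cells and plasma cells, fell from 9.89, 9.90 and 9.80 to 9.07, 9.02 and 9.08, a change of -0.80, with an untreated change of 0.04 that did not pass. MZB1, a chaperone of antibody chains, fell by 0.92 on its brightest probe while the other changed by 0.18.

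The BCL2 family, which sets the threshold for apoptosis, had 5 of 16 members that rose (3 with median scaling) and 6 that fell, with a median of -0.20. In untreated cells 2 rose and 12 fell. Over all genes 18.1% rose and 18% fell with MST-312, and 22.8% and 22.1% in untreated cells. BCL2L11, which encodes the death activator BIM, rose by 0.79 from 7.63, 7.56 and 7.33 to 8.47, 8.37 and 8.04, and its other probes by 0.77 and 1.12. BAK1, which opens the mitochondrial membrane, fell by 0.72. BCL2L1, which encodes BCL-XL, fell by 0.62 on its brightest probe while a dimmer probe changed by 0.37, and the mean over both changed by -0.13 without passing. Of 23 p53 targets none rose and 8 fell, with a median of -0.30. In untreated cells 5 rose and 8 fell, with the same median. The difference was lower with MST-312 for 6 of the 23 and higher for 2, where 11.5% and 11.3% of all genes were. POLH, a DNA polymerase that passes damaged bases, fell by 1.35 from 8.32, 8.15 and 8.57 to 6.76, 7.21 and 7.03, and TP53INP1, a stress response protein, by 0.74.

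Of 22 ATF4 and integrated stress response genes 11 rose and 4 fell, with a median of 0.25. Of these genes 7 rose without replicate 3 at 0 h or replicate 2 at 4 h, and 5 rose when arrays were scaled by the median. The falls numbered 2 without replicate 2 at 0 h or without replicate 1 or 3 at 4 h. In untreated cells 7 rose and 6 fell, with a median of -0.08. SLC7A1, a carrier of cationic amino acids, went from 10.01, 10.06 and 10.02 to 11.19, 11.06 and 11.04, a rise of 1.07 (SE 0.10). SLC7A5, a carrier of large neutral amino acids, rose by 1.01 and its partner SLC3A2 by 0.59. SLC38A2, a glutamine carrier, moved the other way and fell by 0.97 from 11.32, 11.24 and 11.39 to 10.40, 10.38 and 10.27. TRIB3, a pseudokinase induced by ATF4, rose by 0.50 with MST-312 and fell by 0.40 without. Of 18 unfolded protein response genes 6 rose and 1 fell (2 without replicate 2 at 4 h), where 18.1% and 18% of all genes did. The median of the 18 was 0.07. Among them PDIA6 rose by 0.55 and DNAJB9 by 0.47, and in untreated cells they rose by 1.14 and 1.09.

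Of 18 NRF2 and antioxidant genes 8 rose and none fell, with a median of 0.22. HMOX1, which degrades haem, went from 7.91, 8.10 and 8.10 to 9.31, 9.33 and 9.63, a rise of 1.38 (SE 0.10), and TXN, thioredoxin, rose by 0.75. Of 18 glycolysis genes 6 rose and 1 fell, where 18.1% and 18% of all genes did. LDHA, lactate dehydrogenase A, rose by 0.84, and SLC2A1, the glucose carrier GLUT1, fell by 0.72 from 10.53, 10.75 and 10.59 to 9.95, 9.86 and 9.91. Of 23 cholesterol and fatty acid synthesis genes 2 rose and 3 fell with MST-312, against 18.1% and 18% of all genes, with a median of -0.08. Without replicate 2 or 3 at 0 h or replicate 1 or 2 at 4 h 1 rose, and the median was 0.02 without replicate 3 at 0 h. In untreated cells 13 rose and 2 fell, with a median of 0.54. For 8 of these genes the difference was lower with MST-312 and for none was it higher, where 11.5% and 11.3% of all genes were. FASN, which builds palmitate, rose by 0.93 with MST-312 and by 1.12 without. ACACA, the carboxylase that supplies it, fell from 8.47, 8.41 and 8.56 to 8.22, 7.97 and 7.93 with MST-312, a change of -0.44, and rose by 1.66 without (difference -2.10, adjusted p 5.24e-10).

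Of 39 G2/M and mitosis genes 15 fell and none rose, with a median of -0.36, and in untreated cells 9 fell and 2 rose, with a median of -0.17. AURKA, a mitotic kinase, fell from 7.65, 7.63 and 7.92 to 6.75, 6.87 and 6.73, a change of -0.95 (SE 0.13), while its untreated change of 0.10 did not pass. UBE2C, which works with the anaphase-promoting complex, fell by 0.92 with a wide spread at 4 h, from 8.19, 8.39 and 8.18 to 7.57, 7.74 and 6.68. Of 41 DNA replication genes 7 rose (4 without replicate 2 at 4 h, 3 with median scaling) and 11 fell. Their median was -0.10, and over all genes 18.1% rose and 18% fell. ORC3, an origin recognition subunit, fell by 1.03 and CDT1, a licensing factor, by 0.77 (adjusted p 0.00758, and 0.0592 without replicate 3 at 4 h), while POLD2, a subunit of DNA polymerase delta, rose by 0.94.

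Of 22 G1 cyclins, CDKs, inhibitors and E2F factors 5 rose, or 3 without replicate 2 at 4 h, and 7 fell. Over all genes 18.1% rose and 18% fell. The median of the 22 was 0.05 and ranged from -0.08 to 0.09 over the alternatives. RB1, the retinoblastoma protein, fell from 9.63, 9.65 and 9.49 to 8.47, 8.44 and 8.53, a change of -1.11 (SE 0.11). E2F2 fell by 1.06 from 9.31, 9.32 and 9.37 to 8.20, 8.24 and 8.37, and E2F3 rose by 0.73. CDK6, a G1 kinase, fell from 7.73, 7.82 and 7.57 to 6.83, 6.53 and 6.69 with MST-312, a change of -1.02, and rose by 0.31 in untreated cells. CDKN2D, an inhibitor of CDK4 and CDK6, fell by 0.57 with MST-312, and without it fell by 2.64. Of 12 genes described as repressed by MYC 3 rose and 4 fell, where 18.1% and 18% of all genes did, with a median of -0.09. The falls numbered 2 without replicate 1 or 2 at 0 h or without replicate 3 at 4 h, and the median was 0.07 without replicate 3 at 0 h. TXNIP, an inhibitor of glucose uptake, fell by 0.50, and by 1.88 in untreated cells. ITGB1, the integrin beta 1 chain, rose by 1.02 with MST-312 and by 2.36 without, the opposite of the direction its list is named for.

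Histone genes fell most widely of the lists described here. Of 55 tested, 32 fell and 1 rose with MST-312, with a median of -0.47, and 34 fell and none rose in untreated cells, with a median of -0.50. Histone genes are close copies of each other, and their probes may share signal. H2AC17 went from 10.31, 10.33 and 10.29 to 8.93, 9.23 and 8.81, a change of -1.32 (SE 0.14). H4C1 was detected on all 0 h arrays and on no 4 h array, at least 1.64-fold lower. Small nucleolar RNAs, which guide ribosomal RNA modification, did not follow the protein genes of ribosome production. Of 101 box C/D genes 7 rose (2 to 9 over the alternatives, 4 without replicate 1 at 0 h) and 11 fell. Their median was -0.01 (0.02 without replicate 3 at 0 h). Of 53 box H/ACA genes 8 rose and 7 fell, with a median of 0.07. Over all genes tested 18.1% rose and 18% fell. SNORA25 rose by 1.26 from 8.25, 8.16 and 8.40 to 9.60, 9.51 and 9.48, and SNORA28 fell by 1.03 from 7.99, 8.02 and 7.90 to 6.99, 7.02 and 6.81. SNORD12C fell by 0.85. These genes mostly lie within introns of other genes, and a probe may read the host transcript.

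The changes that differed most between the treatments included opposite ones. EHBP1, an adaptor of endocytosis, fell from 7.48, 7.44 and 7.45 to 5.96, 5.80 and 5.56 with MST-312, where it was detected on 1 of the 4 h arrays, and rose from a mean of 8.15 to 9.26 in untreated cells (difference -2.79, adjusted p 6.67e-08). MBNL2, a splicing regulator, fell by 0.82 from 10.38, 10.13 and 10.16 to 9.36, 9.33 and 9.51 and rose by 1.18 without MST-312. SMAD9, a mediator of BMP signals, fell by 1.32 from 7.82, 7.50 and 7.77 to 6.24, 6.17 and 6.70, while in untreated cells it was undetected at 0 h. PITPNC1, a lipid transfer protein, was detected on all 0 h arrays and no 4 h array, at least 1.80-fold lower, and rose by 1.13 in untreated cells.

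In the other direction, RASGRP1, an activator of RAS, fell by 0.83 from 8.20, 8.18 and 8.18 to 7.15, 7.61 and 7.32 with MST-312. In untreated cells it went from a mean of 9.05 to below detection on every 4 h array (difference 2.69, adjusted p 2.00e-08). FGFRL1, a receptor that binds fibroblast growth factors, rose by 0.63 from 7.43, 7.44 and 7.34 to 8.06, 8.04 and 7.98 and fell by 1.69 without MST-312, and its other probe changed by 0.11. The difference for FGFRL1 was 2.32 and for LFNG 2.51.

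**Figure D4:**
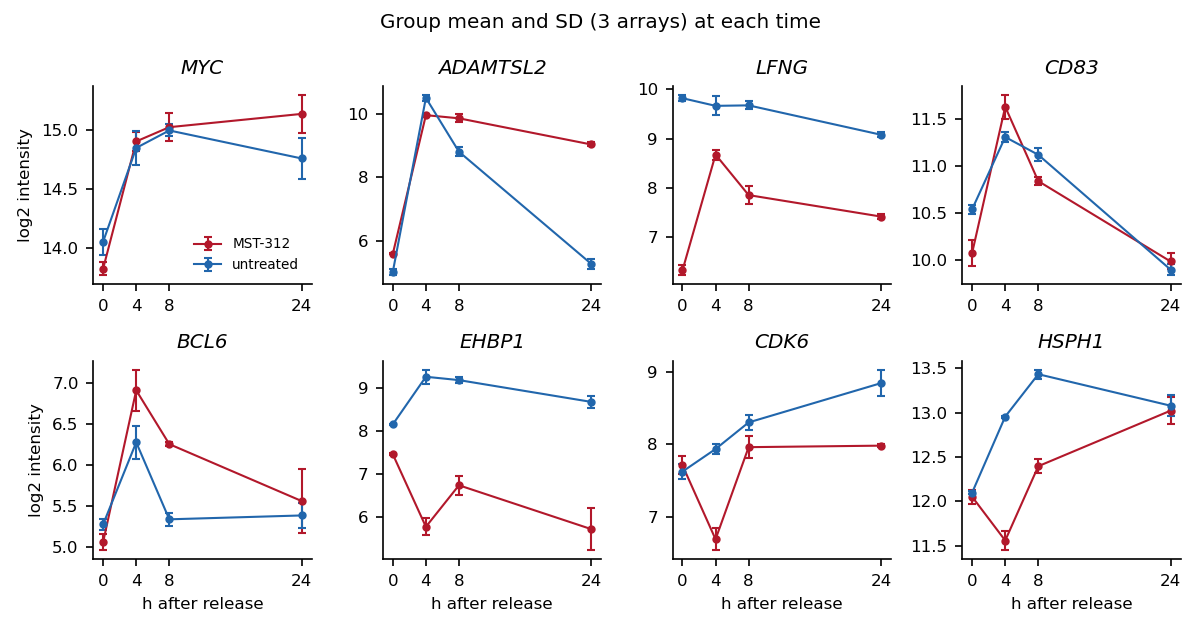
Mean normalised log2 intensity with SD over 3 arrays at 0, 4, 8 and 24 h after release in MST-312 cells (red) and untreated cells (blue) for 8 genes. In MST-312 cells LFNG, CD83 and BCL6 have their highest mean at 4 h, CDK6 and HSPH1 their lowest, and MYC stays high to 24 h.

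The change was set against the span of each gene in the genome after many of the largest falls were seen to be of long genes, and it is given as a description. Of the 12 largest falls, RNA18SN5 included, 7 spanned at least 100 kb, as did 1500 of the 9610 tested protein-coding genes with a RefSeq span. Among these 9610 the median change with MST-312 was 0.08 for genes under 10 kb, 0.02 from 10 to 30 kb, -0.05 from 30 to 100 kb, -0.14 from 100 to 300 kb and -0.31 for the 233 genes over 300 kb. The corresponding medians in untreated cells were 0, 0.01, -0.01, -0.01 and -0.08. Of genes under 10 kb 9.55% fell and 23.9% rose with MST-312, and of those over 300 kb 40.8% fell and 4.29% rose. In untreated cells 22.5% of the shortest and 27.9% of the longest fell. The 3 arrays at 4 h with MST-312, each taken against the same 0 h mean, had medians of 0.10, 0.06 and 0.08 under 10 kb and of -0.31, -0.29 and -0.36 over 300 kb. The untreated arrays against their own 0 h mean had 0.04, -0.02 and -0.01 under 10 kb and -0.10, -0.08 and -0.14 over 300 kb. With MST-312 at the later times, which share the 0 h arrays, the medians under 10 kb and over 300 kb were 0.03 and -0.20 at 8 h and 0.05 and -0.34 at 24 h.

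Long genes were also dimmer, with a median mean level of 7.04 over 300 kb and 8.58 under 10 kb. When the genes were divided by mean level into 3 equal classes, the MST-312 median in the dimmest class was 0.02 under 10 kb and -0.07 from 100 kb. In the middle class these values were 0.11 and -0.26, and in the brightest 0.10 and -0.21.

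**Figure D5:**
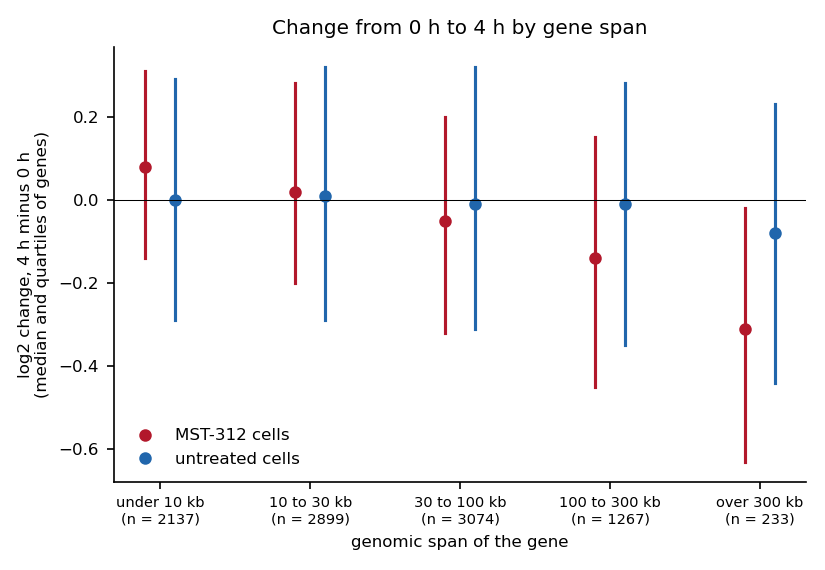
Median log2 change from 0 h to 4 h (points) with lower and upper quartile of genes (bars) by the genomic span of the gene, in MST-312 cells (red) and untreated cells (blue), with the number of genes under each class. The MST-312 medians go from 0.08 for genes under 10 kb to -0.31 for genes over 300 kb, and the untreated medians lie between 0.01 and -0.08.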

How the data were processed

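The labels state that total RNA of P493 cells was extracted with Trizol, cleaned up with a DNase I step and labelled as biotinylated cRNA for Illumina arrays. Per the file headers, the deposited raw table holds 47322 probes, with a raw intensity and a detection p-value per array. The authors' processed intensities, in a separate value table, were used as an alternative. No source used here states how they were made.

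The neqc function (limma 3.58.1, R 4.3.3) corrected the raw intensities by normexp, using the detection p-values, added an offset of 16, quantile-normalised the arrays and took log2. The filter kept a probe when some group had it detected (p below 0.05) on its 3 arrays. It left 17882 probes, and 13518 of these had 1 symbol in the platform annotation. The probe with the highest mean stood for its gene. All 24 arrays entered a single limma model of 8 groups (16 residual and 3.78 prior degrees of freedom), which gave the change in MST-312 cells, that in untreated cells and their difference. A gene undetected in a group has an "at least N-fold" ratio, taken against the higher, per array, of the lowest detected signal and its own. Arrays limit the precision by their number, 3 per group. The sources used here name no chip or scan, and a chip effect was not analysed.

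The members, gene lists and tests were chosen with earlier results of these data known. Genes were named by a rule: MYC and TERT, the 12 largest rises and falls whose arrays did not overlap between the times, the 6 largest differences in each direction, and from each list at most 4 changed members in its main direction and at most 2 in the other (1.5-fold or more). Unnamed loci and reading frames were passed over, small families may be given whole, and the text gives a part. NAT10, UTP4, HSPA8, CHORDC1, IFIT1, IFIT3, RPL34 and RPS21 were singled out after their values were seen, as were the comparisons by gene span. Some genes stand on more than 1 list. Alternatives covered background correction, normalisation, the probe filter, the arrays in the model, the spread, several probes per gene, replicate blocks and each array left out.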

Additional observations from a re-analysis of the deposited data

Results flagged for a closer look

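For 139 genes named above the change with MST-312 was followed under the alternatives. Of these, 70 changed from 0 h to 4 h by a different amount in MST-312 cells and in untreated cells. This is by the test of the difference itself (limma, adjusted p below 0.05 over all genes tested). The difference of each gene was taken from the main setting and was not followed under the alternatives. The difference, MST-312 minus untreated on the log2 scale, was higher with MST-312 for 33 of the 70 and lower for 37. Over all genes tested it was higher for 11.3% and lower for 11.5%. With median scaling the higher differences over all genes went from 1155 to 530 and the lower ones from 1175 to 1260. The higher ones went from 1 to 0 in the polyamine list, which holds ODC1. In the glycolysis list, which holds SLC2A1, they went from 4 to 0. Some of the 139 were chosen for a large difference and others after their values were seen, so the counts of 33 and 37 depend partly on the choice. Values involving a group in which the gene was undetected rest partly on intensities not above background. No explanation was weighed.

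The differences of the interferon-stimulated genes among the 70 were all positive: IFIT1 2.46, MX1 2.40, IFIT3 2.39, SAMD9L 1.76, OAS2 1.18, PARP9 1.13 and IFI44L 1.04. Those of immediate-early genes were DUSP5 1.89, EGR1 1.84, KLF10 1.44 and SRF 0.83, and those of NF-kB target genes were LTA 1.61, CD40 1.11 and CD83 0.78. BCL6, from the list of quiescence and FOXO-linked genes, had 0.85. B cell, plasma cell and BCL2 family genes had EBF1 1.61, CD22 0.65 and BCL2L11 0.92 above 0 and CD27 -0.84 below it. Among regulators of MYC, growth and glucose uptake the positive values were CDKN2D 2.07, TXNIP 1.38, MXD3 1.28, E2F2 1.01 and SLC2A1 0.49. Other positive values were RASGRP1 2.69, LFNG 2.51, FGFRL1 2.32 and SEMA7A 1.72, with PRRT3 0.62 and CLIC3 0.42 among the largest rises. Synthesis and stress genes with a positive value were EMG1 0.95, IMPDH1 0.94, TRIB3 0.91 and ODC1 0.46.

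Chaperone genes among the 70 were all negative: HSPA1B -1.85, CHORDC1 -1.42, HSPH1 -1.35, CCT4 -0.77, HSPA8 -0.62, CCT5 -0.58 and CCT6A -0.50. The endoplasmic reticulum genes had DNAJB9 -0.62 and PDIA6 -0.59. Among genes that moved in opposite directions the values were EHBP1 -2.79, PITPNC1 -2.15, ACACA -2.10, SMAD9 -2.08, MBNL2 -2.01 and CDK6 -1.33. Among the largest falls with MST-312 they were AFF3 -1.54, SSPN -1.44, PDE3B -1.42, PDSS2 -1.09, STK3 -0.996 and SLAMF6 -0.77. Cell cycle and histone genes had ORC3 -1.40, AURKA -1.05, RB1 -0.85, UBE2C -0.76 and H4C1 -0.68. Genes that rose in both treatments, by less with MST-312, had ITGB1 -1.34, ADAMTSL2 -1.11, PPAN -0.73, A4GALT -0.69, PFKFB3 -0.57, MIR181A2HG -0.52, POLR1C -0.42 and NME1 -0.37. The remaining values were MGA -0.78 and SLC38A2 -0.75. Each value is of a gene's brightest probe, and other probes did not all follow. With MST-312 and in untreated cells they changed by 1.56 and 1.66 for PFKFB3 and by -1.15 and -1.08 for SLAMF6. For NME1 they changed by 1.09 and 0.81 or 1.27 and 1.34, and for IMPDH1 by 0.24 and 0.25 or 0.30 and 0.46. Among those that followed were ITGB1 (1.22 and 2.69), POLR1C (0.99 and 1.41) and ACACA (-0.37 and 1.62).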

How the results depend on the processing

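The counts were computed under 11 alternatives and with each array left out. In the MST-312 comparison these 11 gave 1230 to 2007 higher genes and 1666 to 2113 lower. Median scaling gave the lowest count of higher genes, 1230 against 1851, and 530 against 1155 genes whose difference was higher with MST-312. It kept 2853 of the 3698 called genes with the same sign, and none changed sign, whereas 14 called genes changed sign with the mean over a gene's probes and 3 without the filter on dim probes. Without any background correction and with the authors' processed values 3852 genes were called in each case, so these are not separate checks. The cause of these shifts was not tested. Leaving out 1 array gave 1534 to 1730 higher and 1500 to 1692 lower genes with MST-312, 2056 to 2232 and 1953 to 2108 in untreated cells, and 945 to 1154 and 945 to 1117 for the difference. Arrays with the same replicate number at 0 h and 4 h correlated in their deviations at 0.0637, 0.0634 and 0.259 with MST-312, and those with different numbers at -0.172 to 0.119. In untreated cells the values were 0.108, -0.065 and 0.277, and -0.245 to 0.177. Replicate 3 correlated above 0 only with replicate 3 in both treatments. The main model did not pair the arrays by number, and whether the numbers mark a shared batch was not tested. With the number as a replicate block 2007 genes were higher and 2113 lower, and with a block within treatment 1967 and 2066.

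Of 2363 values of named genes under alternatives, 2309 kept their direction and their side of the threshold, 31 lost the call and 9 gained one. The other 14 were of genes that had not passed the test and changed sign: MAX (0.04) and MLX (-0.02) with the mean over probes, and, when each array was left out in turn, MXI1 (-0.28 to 0.27), CCT4 (-0.13 to 0.01), CCT5 (-0.11 to 0.02), TCP1 (-0.22 to 0.04, and 0.07 with the mean over probes) and IFIT1 (-0.01 to 0.09, and -0.04 with median scaling). For gene span, genes under 10 kb and from 100 kb were compared under alternatives: with median scaling their medians were 0.03 and -0.19 with MST-312 and 0.07 and 0.04 in untreated cells, and with cyclic loess 0.08 and -0.16 and -0.04 and -0.04. Probes near background, which include several genes undetected at 1 time, give bounds only.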
